A study of Arabidopsis lyrata with 3 samples.

Results

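The windows described here are regions of the Arabidopsis lyrata genome with a strong SEPALLATA3 (SEP3) chromatin immunoprecipitation (ChIP) signal in both ChIP libraries of the study. A window of the replicate 1 list was taken if its score was 5 or more and if it shared at least 1 bp with a replicate 2 window of score 4 or more. Where several such replicate 2 windows were met, the one of highest score was taken as the partner. The windows were therefore chosen by the scores of both libraries. This gave 603 windows out of the 93693 of the replicate 1 list, or 0.644%, with 602 different partners among the 64504 replicate 2 windows. The study took inflorescences with floral buds of stage 1 up to 10 or 11 and made 2 SEP3 ChIP libraries and 1 input DNA library. The antibody had been made with an A. thaliana SEP3 peptide. Wild-type plants received a cold period of 7 to 10 weeks and then bolted under long days at 18 to 22 °C. For replicate 1 and the input, the cold period was a constant 8 °C in a cycle of 16 h light and 8 h dark. For replicate 2 it was 8 °C during the day and 4 °C during the night, in a cycle of 12 h light and 12 h dark. The cold regime thus differs between the 2 ChIP libraries, and its effect cannot be told apart from that of the library. The number of plants pooled per library is not stated in the labels.

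SEP3 is a MADS-domain transcription factor that is active in floral meristems and developing floral organs, where it forms complexes with the MADS-domain proteins that specify sepals, petals, stamens and carpels. MADS-domain dimers contact an A/T-rich sequence known as the CArG box, and complexes that join a pair of dimers can bring nearby boxes together by looping the DNA between them. In A. thaliana, SEP3 is known to bind its own locus and those of many other floral regulators, mostly in promoters and other non-coding DNA. No genome sequence and no gene function table of A. lyrata were used here, so the windows are given by position and by the RefSeq symbol of the neighbouring gene, and sequences at the summits were not analysed here.

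The authors' score served both to choose the windows and to rank them, so the scores are given as a description. In replicate 1 the scores of the 603 windows ran from 5 to 57.62 with a median of 8.33. In replicate 2 the partner scores ran from 4 to 63.67 with a median of 5.71. Most pairs were therefore of modest strength, and a minority was very strong. Both scores reached 10 in 115 windows and 20 in 36 windows. At the lower limit of replicate 1 the weakest accepted windows all scored 5, with partner scores of 4.74, 6.63 and 4.25. The nearest windows below it scored 4.94, 4.92 and 4.87, with partner scores of 4.98, 5.35 and 7.48. At the limit of replicate 2, accepted partners scored 4 beside replicate 1 scores of 11.01, 10.18 and 9.48, and the strongest rejected partners scored 3.94 beside 7.05, 8.14 and 5.32. Windows on either side of a limit thus differed little in score.

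In replicate 1, the stronger a window, the more often it was also strong in replicate 2. The relation is a description, since it uses the scores by which the windows were chosen. Of the 1388 replicate 1 windows of score 5 or more, which make up 1.48% of that list, 603 (43.4%, 95% Wilson interval 40.9 to 46.1%) had a partner of score 4 or more. The share was 18.3% of 536 windows with scores from 5 to under 6, and 64.1% of 192 windows from 8 to under 10. All 42 windows of score 20 or more were strong in both. The 785 replicate 1 windows left out each met some replicate 2 window, of median score 2.78, and their own scores reached 17.79. Seen from replicate 2, 604 of 859 windows of score 4 or more, or 1.33% of that list, met a strong replicate 1 window (70.3%, 67.2 to 73.3%). Here the share did not rise steadily with the score. From the lowest class to the highest it was 61.3% of 349 windows, 73.5% of 147, 72.1% of 154, 59.1% of 44, 74.6% of 63, 92% of 25 and 97.4% of 77, the last class being windows of 20 or more. The 255 replicate 2 windows left out included 50 that met no replicate 1 window of any score, among them the window of highest score in that list, at 73.31.

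**Figure D1:**
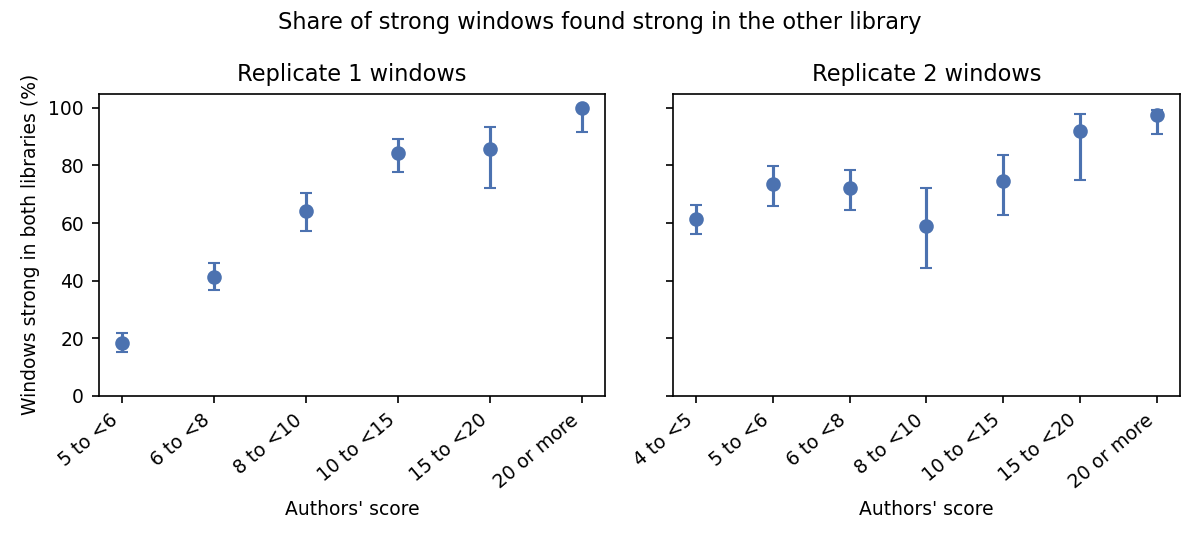
Share of strong windows that were strong in both libraries (vertical axis, %) by the authors' score (horizontal axis), for replicate 1 windows of score 5 or more and replicate 2 windows of score 4 or more; bars are 95% Wilson intervals. In replicate 1 the share goes from 18.3% in the lowest class to all 42 windows in the highest. In replicate 2 it is 61.3%, 73.5%, 72.1% and 59.1% (44 windows) in the lower classes and then rises to 97.4% in the highest.

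The libraries placed the summits of these windows close together. Summit positions were not used by the rule, but the overlap it required limits how far apart they can lie. No summit distance is given here for the windows left out alone. The summits of a pair lay a median of 26 bp apart (95% interval of the median 24 to 29 bp, n = 603 pairs). They lay within 50 bp of each other in 441 pairs (73.1%), within 100 bp in 548 (90.9%) and within 200 bp in 589 (97.7%). The replicate 2 summit stood at the higher coordinate in 306 pairs, at the lower in 283 and on the same base in 14. There was no side to which replicate 2 summits were mostly moved. Both lists may rest on the same input library, whose part in this was not tested. Summits sat near the middle of their windows, at a median of 48.7% of the width in replicate 1 and 48.9% in replicate 2, and between 25 and 75% of the width in 461 (76.5%) and 559 (92.7%) of the windows. The intervals cover counting error over windows only, since each library gives 1 list and read depth is unknown from these lists.

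Window widths differed between the libraries. Replicate 1 windows had a median width of 981 bp (quartiles 663 and 1608.5 bp), against 698 bp (570 and 897.5 bp) for their partners. The replicate 1 window was the wider of the pair in 421 of 603 cases (69.8%), and it enclosed its partner wholly in 295. In 128 pairs the replicate 2 window enclosed the replicate 1 window. The order of widths turned along the ranking. With the windows ordered by the worse of their ranks in the whole lists, the first 50 had median widths of 702 bp in replicate 1 and 799.5 bp in replicate 2, and only 7 of them were wider in replicate 1. Among places 301 to 603 the medians were 1111 and 673 bp, and 243 of 303 were wider in replicate 1. Replicate 2 had the higher score in 39 of the first 50 and in 48 of these 303. Over all 603, Spearman's rho of width with score was -0.099 in replicate 1 and 0.0013 in replicate 2. It was -0.41 for replicate 1 width with the log2 ratio of replicate 2 to replicate 1 score. The part of each in the widths was not tested. The median distance between summits was 26 bp in the first group (95% interval of the median 14 to 39 bp), 23.5 bp in places 51 to 150 (15 to 30 bp), 21.5 bp in places 151 to 300 (16 to 28 bp) and 30 bp in the last (25 to 36 bp), with overlapping intervals.

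Wide replicate 1 windows often spanned several replicate 2 windows of any score. Of the 306 windows under 1000 bp, 303 (99.02%) met a single replicate 2 window, as did 121 of the 199 windows from 1000 to under 2000 bp (60.8%). Of the 98 windows of 2000 bp or more, 13 (13.3%) did, and their median was 3 windows. The reverse was rare, with 579 of 602 partners (96.2%) meeting a single replicate 1 window. The coordinates here and below are those of the replicate 1 window on the build that the files call Araly1. The widest window, on scaffold 2 from 10975648 to 10983551, was 7904 bp wide with a score of 11.14. It met 7 replicate 2 windows, the strongest of 1004 bp with a score of 4.31 and a summit 72 bp away. The next widest lay on scaffold 7 from 1468458 to 1474289, with a score of 15.49. It was 1 of 2 windows with 2 partners of score 4 or more, which scored 6.44 and 5.22. The summits of the window and its stronger partner were 1001 bp apart, the longest distance in the set. The third, on scaffold 1 from 11520942 to 11526041, was 5100 bp wide, scored 5.50 and 5.55 in the libraries and had summits 4 bp apart.

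The narrowest windows formed the opposite extreme. The window on scaffold 5 from 3977620 to 3977696 was 77 bp wide with a score of 10.31, and its partner was 369 bp wide with a score of 17.61 and the same summit base. The window on scaffold 7 from 22108387 to 22108475 was 89 bp wide with scores of 6.73 and 15.41. The window on scaffold 5 from 18067252 to 18067350 was 99 bp wide in replicate 1 and 166 bp in replicate 2, with scores of 13.25 and 21.70. All 3 narrow windows scored higher in replicate 2. On scaffold 3 a single replicate 2 window of 1291 bp and score 31.09, from 12179050 to 12180340, was the partner of a pair of replicate 1 windows. These ran from 12179079 to 12179301 (score 9.73) and from 12179903 to 12180303 (score 11.97), their summits 1017 bp apart, and the replicate 2 summit lay 116 bp from that of the second. What replicate 2 records as a single site, replicate 1 records as 2 separate windows.

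**Figure D2:**
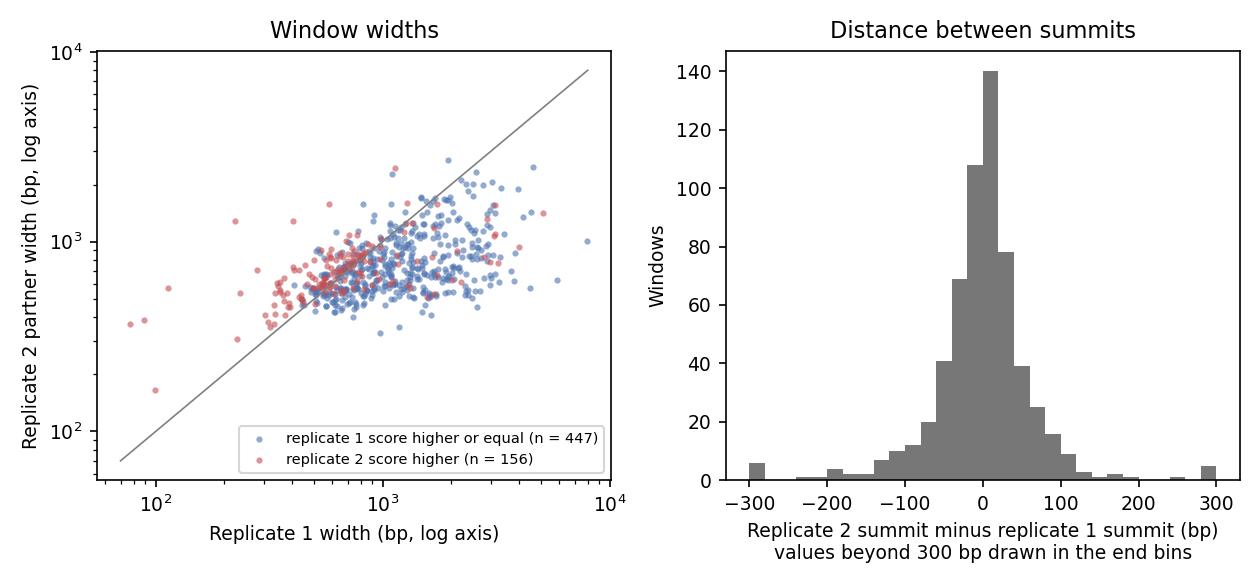
Left, replicate 1 width against replicate 2 partner width (bp, log axes) for the 603 windows, coloured by the library with the higher score; the grey line marks equal widths. Right, number of windows by the signed distance from the replicate 1 to the replicate 2 summit (bp); the median distance without sign is 26 bp, and the widths spread far more in replicate 1 than in replicate 2.

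The position of the summits relative to genes was not used by the rule either. Of the 603 replicate 1 summits, 127 (21.1%, 95% Wilson interval 18.0 to 24.5%) lay inside an annotated gene. The same share was 41.2% of the 93090 other replicate 1 windows and 26.4% of the 785 strong replicate 1 windows whose partner was weaker. A further 213 (35.3%, 31.6 to 39.2%) lay outside genes but had a gene end within 1000 bp, against 31.9% of the other replicate 1 windows and 42.3% of the 785. Another 158 (26.2%, 22.9 to 29.9%) lay from 1000 to 3000 bp away, against 16.4% of the other replicate 1 windows and 20% of the 785. The remaining 105 summits (17.4%, 14.6 to 20.6%) had no gene within 3000 bp, against 10.5% of the other windows and 11.3% of the 785. Of the 255 strong replicate 2 windows that met no strong replicate 1 window, 24.7% lay inside genes and 25.5% outside within 1000 bp. A further 19.6% of them lay from 1000 to 3000 bp away and 30.2% beyond 3000 bp. There were 1923 windows of middle scores in both libraries, from 3 to under 5 in replicate 1 and 2 to under 4 in replicate 2. Of these, 19.7% lay inside genes, 42.1% outside within 1000 bp, 24.3% from 1000 to 3000 bp and 13.8% beyond 3000 bp. The shares of the 603 inside genes and from 1000 to 3000 bp were thus about those of pairs of middle score. The RefSeq table gives no strand, so upstream and downstream sides were not separated, and genes were placed on scaffolds by their order in the table, on the assumption that its assembly is the Araly1 build of the window lists. The differences between these sets were described and not tested.

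Position changed along the ranking. Of the 50 strongest windows over both libraries, 5 lay inside genes, 2 outside within 1000 bp, 14 from 1000 to 3000 bp and 29 beyond 3000 bp (58%, 95% Wilson interval 44.2 to 70.6%). Among places 51 to 150 the share beyond 3000 bp was 23% (15.8 to 32.2%), among places 151 to 300 it was 14% (9.34 to 20.5%) and among places 301 to 603 it was 10.6% (7.58 to 14.5%). The last of these is close to the 10.5% of all other replicate 1 windows. The share within 1000 bp was 4% in the first group and 33%, 42% and 38.0% in the following ones. Gene density followed the same order. A stretch of 100 kb centred on the summit held a median of 12.5 genes in the first 50 and of 18, 19 and 21 in the later groups. Stretches with 10 genes or fewer surrounded 32% of the first 50 and 10.6% of all 603, against 9.98% of the other replicate 1 windows 7.26% of the 785 strong replicate 1 windows with weaker partners and 9.05% of the windows of middle scores. For the 255 strong replicate 2 windows left out it was 23.5%, with a median of 16 genes. The partners of the first 50 all scored 19.99 or more. All 603 were also divided at a partner score of 15, chosen after the scores were seen. With partners of 15 or more, the share beyond 3000 bp was 52.6% at replicate 1 scores of 20 or more, 60% from 10 to under 20 and 50% under 10. With weaker partners it was 0 of 4, 10.7% and 9.76%. The part of each library's score in the change along the ranking was not tested.

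**Figure D3:**
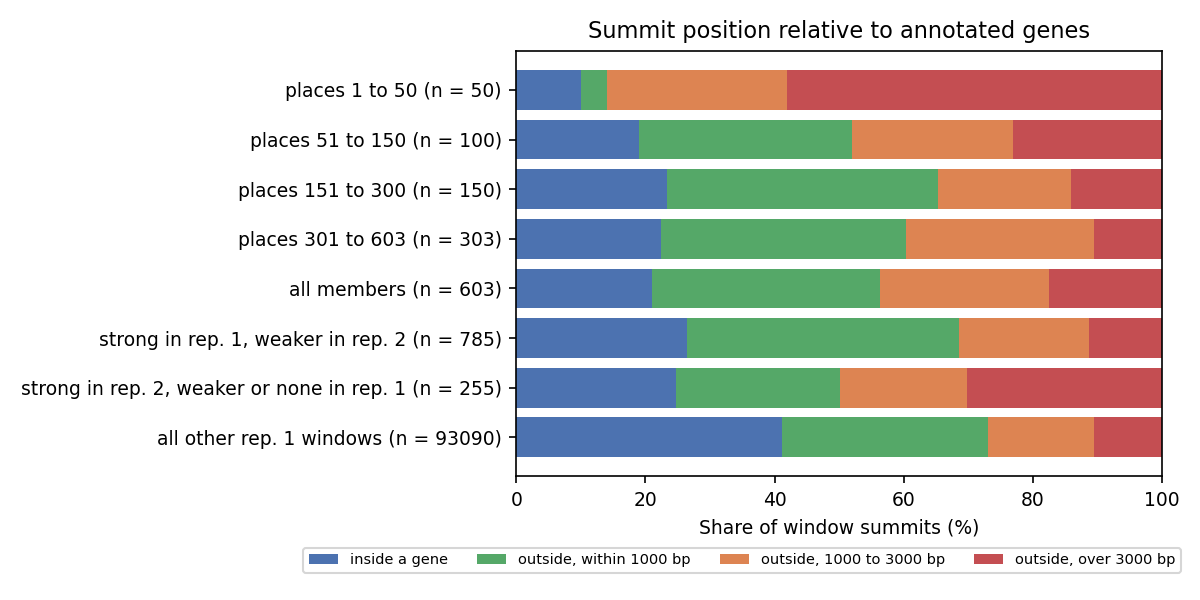
Share of window summits (horizontal axis, %) inside genes and in 3 classes of distance outside genes, for the windows strong in both libraries by place in the ranking, for all 603 of them and for 3 comparison sets of the same lists. The share beyond 3000 bp is 58% for the first 50 places and 10.6% for places 301 to 603.

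The ratio of the scores changed with position. Replicate 1 scored higher in 445 windows, replicate 2 in 156, and 2 were tied, with a median log2 ratio of replicate 2 to replicate 1 of -0.38. Of the 156 windows with the higher score in replicate 2, 64 lay beyond 3000 bp from a gene (41.0%, 95% Wilson interval 33.6 to 48.9%) and 23 outside genes within 1000 bp (14.7%, 10.03 to 21.2%). Of the 445 with the higher score in replicate 1, 41 lay beyond 3000 bp (9.21%, 6.86 to 12.3%) and 188 within 1000 bp (42.2%, 37.7 to 46.9%). By position, the median log2 ratio was -0.43 inside genes, -0.53 outside within 1000 bp, -0.33 from 1000 to 3000 bp and 0.24 beyond 3000 bp. The lists may use unlike score scales, in which case equal scores do not mark equal signal, so the windows were also divided at their median ratio, a cut added after the data were seen. Of the 301 windows above it, 82 lay beyond 3000 bp (27.2%, 22.5 to 32.5%) and 78 outside genes within 1000 bp (25.9%, 21.3 to 31.1%). Of the 302 at or below it, 23 lay beyond 3000 bp (7.62%, 5.13 to 11.2%) and 135 within 1000 bp (44.7%, 39.2 to 50.3%). The order was that of the division at equal scores, with a smaller gap. The ratio was formed from the scores that chose the windows, and no test was made of it.

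The share beyond 3000 bp was higher on the replicate 2 side in each group of places, with intervals that overlapped in some groups. The intervals cover counting error over windows only. The places come from ranks of the same scores as the ratio, so they do not hold the replicate 2 score equal between the sides. Within places 51 to 150, for example, partner scores ran from 7.11 to 31.09. In places 1 to 50, 26 of the 39 windows higher in replicate 2 (66.7%) lay beyond 3000 bp, against 3 of 11 higher in replicate 1 (27.3%), with overlapping Wilson intervals of 51.0 to 79.4% and 9.75 to 56.6%. In places 51 to 150 the shares were 20 of 47 (42.6%, 29.5 to 56.7%) and 3 of 52 (5.77%, 1.98 to 15.6%). In places 151 to 300 they were 31.8% of 22 (16.4 to 52.7%) and 11.02% of 127 (6.68 to 17.7%), with overlapping intervals, and in places 301 to 603 they were 22.9% of 48 (13.3 to 36.5%) and 8.24% of 255 (5.45 to 12.3%). Divided at the median ratio, only 2 of the first 50 windows were on the lower side. In places 51 to 150 that cut gave 34.9% of 63 (24.3 to 47.2%) and 2.70% of 37 (0.48 to 13.8%). It gave 21.3% of 47 and 10.7% of 103 in places 151 to 300, and 14.7% of 143 and 6.88% of 160 in places 301 to 603, with overlapping intervals in both groups. Among windows under 1000 bp wide in replicate 1, the shares were 46.8% of 126 (38.3 to 55.5%) and 7.26% of 179 (4.29 to 12.03%). Among those of 1000 bp or more they were 16.7% of 30 (7.34 to 33.6%) and 10.5% of 266 (7.38 to 14.8%), with overlapping intervals. Width moved with the library as well. The windows higher in replicate 2 had a median replicate 1 width of 638.5 bp against 1140 bp for those higher in replicate 1, while the partner widths were 684.5 and 702 bp. The part of width, cold treatment and library in the result was not tested.

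**Figure D4:**
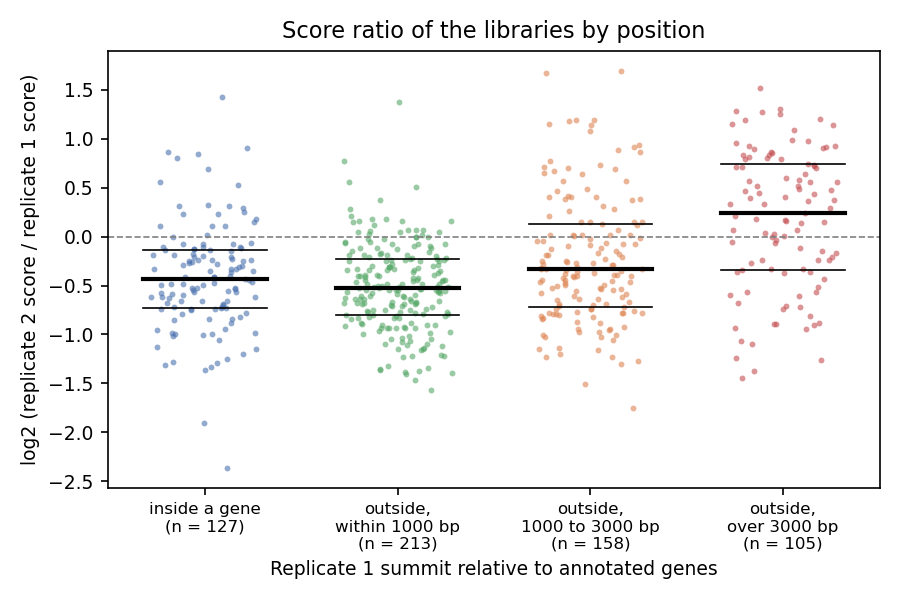
The log2 ratio of the replicate 2 to the replicate 1 score (vertical axis) of each of the 603 windows by the position of its replicate 1 summit; thick bars are medians and thin bars quartiles. The median is -0.53 within 1000 bp of a gene and 0.24 beyond 3000 bp.

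On the plot of the scores the windows form 2 arms, and a partner score of 15, chosen after the scores were seen, was used to divide them. The 99 windows with a partner score of 15 or more had no gene within 1000 bp of the summit in 86 cases (86.9%). Only 3 (3.03%, 95% Wilson interval 1.04 to 8.53%) lay outside within 1000 bp, and 10 lay inside genes. Of the 504 windows with weaker partners, 177 (35.1%) lay outside beyond 1000 bp, 210 (41.7%, 37.4 to 46.0%) within 1000 bp and 117 inside genes. The contrast was there at like replicate 1 scores. Of the 166 windows with replicate 1 scores from 10 to under 20, the 45 with a strong partner had a median replicate 1 score of 13.38, and 2 of them (4.44%, 1.23 to 14.8%) lay within 1000 bp. The 121 with a weaker partner had a median of 12.07, and 53 (43.8%, 35.3 to 52.7%) lay there. The median distance to a gene was 4796 bp for the former, with inside counted as 0, and 499 bp for the latter. Their median replicate 1 widths were 542 and 1097 bp, and 100 kb around them held a median of 14 and 20 genes. Of the windows with replicate 1 scores under 10, 16 had a strong partner and none of these lay outside genes within 1000 bp, against 154 of 379 (40.6%) with a weaker partner.

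**Figure D5:**
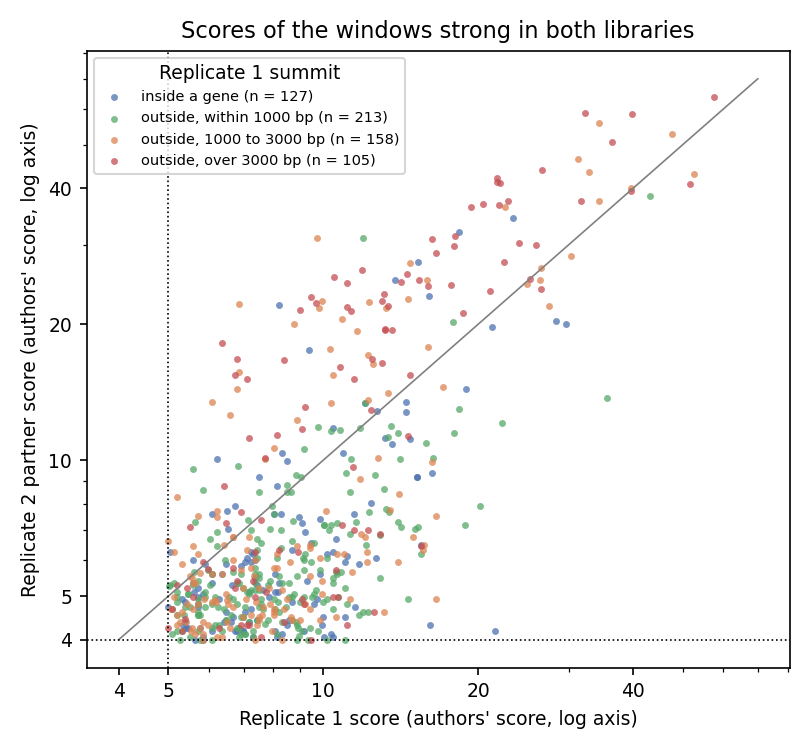
Replicate 1 score against replicate 2 partner score (the authors' scores, log axes) of the 603 windows, coloured by the position of the replicate 1 summit; dotted lines are the limits of 5 and 4 and the grey line marks equal scores. Of the 99 windows with a partner score of 15 or more, 3 lie outside genes within 1000 bp.

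Individual windows of both arms are given below. The places below the 10 strongest, from 11 to 22, held 12 windows. All 12 were in the arm of strong partners, with partner scores of 30.05 or more, and 10 of them had no gene within 1000 bp of the summit. The scaffold 1 window at 7694634 to 7695497 had scores of 31.28 and 46.40, with summits 6 bp apart, 1809 bp from LOC9329058. The window from 31821631 to 31822500 scored 39.59 and 39.51 and stood alone in a gene-poor stretch, 11801 bp from LOC110224498 and 49075 bp from LOC110224903, with 6 genes in the 100 kb around it. LOC9326912 was 1045 bp from the window at 13289942 to 13290692, which had scores of 22.59 and 36.46. Those from 28509191 to 28510008 (scores 24.06 and 30.30) and from 27648446 to 27648937 (22.07 and 41.10) lay 3270 bp from LOC9327813 and 8847 bp from LOC9330411. These 5 scaffold 1 windows were between 492 and 870 bp wide in replicate 1.

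The scaffold 3 window at 19964503 to 19965173 had scores of 31.66 and 37.44, had summits 1 bp apart and lay almost midway between LOC9322028 at 7966 bp and LOC110229689, a pseudogene, at 8448 bp. LOC9321820 was 4829 bp from the window at 13364917 to 13365583, with scores of 25.91 and 30.05. The scaffold 6 window at 13513509 to 13514178 had scores of 34.35 and 37.62, 2090 bp from LOC9308371. The scaffold 7 window at 19670805 to 19671506 had scores of 26.61 and 43.96, 9039 bp from LOC9306568. The scaffold 2 window at 9688264 to 9688967 had scores of 22.90 and 37.50, 5072 bp from the pseudogene LOC9323010 and 15385 bp from LOC9324482. The remaining 2 of the 12 were closer to genes. The window on scaffold 4 from 21643923 to 21644687 scored 43.17 and 38.47 with its summit in a space of 459 bp, 9 bp from LOC110229352 and 451 bp from LOC110229330. The window on scaffold 5 from 11663478 to 11664248 scored 23.42 and 34.45 inside LOC9311777, a protein-coding gene annotated over 25370 bp, 9836 bp from its nearer end.

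The lowest log2 ratio, -2.36, belonged to the window on scaffold 4 from 434840 to 437414, 2575 bp wide, which scored 21.54 and 4.19 and had its summit inside LOC9314632. The next, on scaffold 1 from 8740841 to 8744794, scored 16.12 and 4.31 inside LOC9329173 and met 4 replicate 2 windows. The windows on scaffold 8 from 13786970 to 13787699 (16.58 and 4.92), on scaffold 3 from 5184970 to 5186205 (14.59 and 4.92) and on scaffold 7 from 10066539 to 10068021 (13.13 and 4.61) lay 1149, 432 and 2920 bp from LOC9300121, LOC9320999 and LOC9303996. None of these 5 lay beyond 3000 bp from a gene.

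The highest ratio in favour of replicate 2, 1.70, belonged to the window on scaffold 6 from 21966024 to 21966431, which scored 6.86 and 22.24 with summits 1 bp apart, 1280 bp from LOC9310836. The next, at 1.68, was the first window of the divided scaffold 3 site, 1837 bp from LOC9321737, and the second window of that site was the fifth in this order, with 1.38 at 820 bp. Between them, the other scaffold 6 window, from 14059351 to 14059776, had a ratio of 1.52 with scores of 6.35 and 18.22 and stood 7929 bp from the pseudogene LOC9308391, with 6 genes in 100 kb. The scaffold 4 window from 12425164 to 12426122 scored 8.20 and 22.06 (ratio 1.43) inside LOC9315208. Of these 5 windows, 1 lay beyond 3000 bp from a gene. These windows were between 223 and 959 bp wide in replicate 1.

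The genes beside the windows were mostly protein-coding, as they were in the comparison sets. The nearest gene, or the gene that held the summit, was protein-coding for 560 of the 603 windows (92.9%, 95% Wilson interval 90.5 to 94.7%), against 89.7% of the other replicate 1 windows, 94% of the strong replicate 1 windows with weaker partners and 74.5% of the strong replicate 2 windows that were left out. The nearest gene was a long non-coding RNA gene for 24 (3.98%), a pseudogene for 14 (2.32%) and a transfer RNA gene for 5 (0.83%). For the other replicate 1 windows these shares were 6.42%, 3.35% and 0.49%. For the strong replicate 1 windows with weaker partners they were 3.82%, 1.78% and 0.38%. For the windows of middle scores they were 6.24%, 3.69% and 0.42%, beside 89.7% protein-coding. For the strong replicate 2 windows left out they were 9.41%, 7.45% and 8.63%. In all, 799 of 29018 protein-coding genes (2.75%) had a summit inside them or within 3000 bp. So did 45 long non-coding RNA genes, 23 pseudogenes and 18 transfer RNA genes, whose totals are not given here. Of the 371 windows outside genes with a gene within 3000 bp, 159 had one on both sides, so that for these the position does not point to a single gene. The gene lists prepared for floral, flowering time and hormone genes matched no gene of the table by symbol, nor did a control list of ribosome and proteasome genes. The table names genes by LOC numbers, apart from transfer RNA genes, so the match could not succeed. It does not show which kinds of gene lie near the windows, and no window is assigned to a gene of known function.

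The 127 summits inside genes fell in 126 different genes, and 124 of these summits lay in protein-coding genes. The host genes were long, with a median of 2997.5 bp over the 124 summits against 2125.5 bp for all protein-coding genes, though a longer gene is also more likely to hold a summit. The summits lay a median of 615 bp from the nearer end of the gene, and 52 (40.9%) within 500 bp of it. After the LOC9311777 window, the strongest of them were in LOC110227488 (scores 18.37 and 32.07, 573 bp from the nearer end), in LOC9320232 (16.06 and 23.10, 5244 bp), in LOC9311411 (28.34 and 20.35, 2312 bp) and in LOC9307729 (29.71 and 19.99, 886 bp). LOC9320232 spans 15984 bp and LOC9311411 7065 bp, while LOC110227488 spans 1972 bp.

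The windows were spread over the genome, and most stood more than 10000 bp from the next. They lay on all 9 scaffolds, with 117 on scaffold 1 and 2 on scaffold 9. Up to the last window of a scaffold there were from 2.40 windows per Mb on scaffold 4 to 3.53 on scaffolds 1 and 7, and 1.06 on scaffold 9. Scaffold 8 held 61 windows and 2 of the 50 strongest, and its highest scores of 30.26 and 28.41 were below those of scaffolds 1 to 7. The share of summits inside genes ran from 12.5% of 72 windows on scaffold 3 to 30.8% of 65 on scaffold 5, leaving out scaffold 9. The median distance to the next summit was 194 kb. Another of the 603 summits stood within 10000 bp of 58 windows (9.62%, 95% Wilson interval 7.51 to 12.2%), in 26 pairs and 2 groups of 3. This share depends on the number of windows, and the share expected from their density was not computed.

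One group of 3 lay on scaffold 2. Its windows ran from 12906769 to 12907968 with scores of 8.26 and 7.60 inside LOC9324710, from 12909344 to 12909922 with scores of 9.05 and 9.19 at 387 bp from LOC9324711, and from 12915973 to 12916645 with scores of 6.92 and 4.12 between LOC9323227 at 310 bp and LOC9323228 at 340 bp. The other lay on scaffold 7, with windows from 1455671 to 1457379 (9.86 and 7.42, inside LOC110226739), from 1458582 to 1460699 (8.33 and 4) and from 1460955 to 1463330 (15.62 and 6.32). The last pair stood in the same space of 5262 bp between LOC110226739 and LOC9305072. The 5832 bp wide window of scaffold 7 described above lay on the other side of LOC9305072.

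The 476 windows outside genes stood in 469 different spaces between genes, and 7 spaces held 2 of them. The longest of these 7, on scaffold 3 between LOC9319820 and LOC110230552, measured 75566 bp and held summits 4350 bp apart. The space on scaffold 5 between LOC110228500 and LOC110228005 measured 43069 bp and held summits 10114 bp apart, and the one on scaffold 7 between LOC9303436 and LOC110226106 measured 39538 bp, with summits 4340 bp apart. A space on scaffold 1 of 24745 bp between LOC9326356 and LOC9326357 had a summit near each end, 514 and 2712 bp from the gene there. In these 4 long spaces the pair stood together in the interior in 3 cases and at opposite ends in 1. Of all genes with a summit inside or within 3000 bp, 23 had 2 such summits and none had 3, and 7 genes had a summit on both sides.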

How the data were processed

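Windows with a summit position and a score were deposited by the authors as 1 list for each A. lyrata SEP3 ChIP library, per the file headers. The scale of this deposited score is not stated in header or label. The submitters' processing notes name CASAVA. Input DNA served as the control, per the design text, and both lists may share it. Aligner and peak caller are not given in the sources used. The file names carry the build Araly1. The list of A. thaliana windows was not used here.

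Members and lists were chosen with earlier results of these data known. Overlaps, distances and Wilson intervals were computed in Python 3.11.15 with pandas 2.3.3 and scipy 1.17.1, and checked on simulated windows. Places order the members by the worse of their ranks in the lists. Genes came from a RefSeq table of assembly version 1, without strand or scaffold. Its first 9 blocks of rising position, 33239 genes, were taken as scaffolds 1 to 9. On all 8 scaffolds compared, the share of all members lying outside genes within 1000 bp was highest with the scaffold's own block. It was 30.8 to 39.7% with own blocks and 8.55 to 29.2% with others. The share inside genes also changed with the block. On scaffold 3 it was 12.5% with its own and 52.8% with block 6. On scaffold 6 it was 23.5% with its own and 21.2% with block 8. The comparison was therefore not made among intergenic members alone. Named windows were those at places 11 to 22, the 5 highest and 5 lowest score ratios, the 3 widest and 3 narrowest, those at the limits and the largest groups. Inside-gene and same-space windows were added after their values were seen. With 1 list per library no test over samples was possible, and depth is unknown.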

Additional observations from a re-analysis of the deposited data

How the results depend on the processing

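The number of windows was 220 with score limits of 8 and 6 and 1166 with limits of 4 and 3; it was within 1.5 times the 603 under both stricter overlap rules. The median summit distance was 22 bp with limits of 8 and 6 and 32 bp with limits of 4 and 3, outside the interval of 24 to 29 bp. The share inside genes stayed within its interval under all 8 alternatives run. The share outside genes within 1000 bp was 26.8% with limits of 8 and 6, and 21.6% within 500 bp and 61.5% within 3000 bp, by construction; from a single library it was 32.2 to 39.3%. The share with another window within 10000 bp was 5.45% with limits of 8 and 6, 17.1% with limits of 4 and 3, 6.18% with a reciprocal overlap of at least 50%, 6.47% within 5000 bp and 15.3% within 20000 bp, and 17.2 to 18.6% for the windows of a single library. The limits of 5000 and 20000 bp act by construction; the cause of the other changes was not tested. The share beyond 1000 bp among windows with strong partners, and its alternatives, were chosen after seeing the data. It was 71.2% for a partner score of 10 or more in place of 86.9%, and stayed within its interval under the other 7. The share beyond 3000 bp of windows of high ratio was 27.2% divided at the median ratio in place of 41.0% at equal scores, and that of windows of low ratio stayed within its interval. The planned CArG box alternatives were not run, since no sequence was used here. No paired analysis was possible because a window list of the input was not analysed here.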
